A study of Mus musculus with 8 samples.

Results

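The SLC25 carriers of A3-1 mouse embryonic stem cells are described here, taken as every gene whose symbol starts with Slc25a and a digit in the 3 deposited count tables. The rule found 43 genes among 16458 transcripts in all, and all 43 transcript identifiers and symbols matched the RefSeq gene table supplied for mouse. All 43 carriers stood in the poly(A) table of 16456 transcripts, 26 in the CLIP table of 7820 and 24 in the footprint table of 7936. Of these, 23 were in all 3 tables, while Slc25a16, Slc25a22 and Slc25a40 were in the CLIP but not the footprint table and Slc25a26 was in the footprint but not the CLIP table. The 16 carriers found in the poly(A) table alone had at most 176 untreated counts. Carriers in the CLIP table had 130 or more, so the ranges overlap and mRNA level alone did not set which carriers were in it.

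The study asked which RNAs the RNA-binding protein LIN28A contacts and how translation stands when Lin28a is depleted. Ribosome profiling, which counts ribosome-protected mRNA fragments (footprints), covered cells given siLin28a, an siRNA against Lin28a, and cells given siLuc, an siRNA against luciferase. Poly(A) RNA-seq covered siLin28a, siLuc and untreated cells, and siRNA lasted 48 hours. CLIP-seq, which sequences RNA crosslinked to a protein and pulled down with it, used 3 anti-LIN28A antibodies in cells with no siRNA: the monoclonals 35L33G and 2J3 and a polyclonal serum. Each of the 8 libraries was a single one of its kind, all from this 1 cell line grown with serum and LIF, with no genetic change named in the labels. No label says that any of them came from separate cultures, so p-values measure the spread between the 3 antibody libraries, which may be technical.

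SLC25 proteins are a large family of solute carriers and most of them sit in the inner mitochondrial membrane, where they exchange nucleotides, phosphate, organic acids, amino acids and cofactors. They are encoded in the nucleus, made on cytosolic ribosomes and brought in after synthesis by TOM70, small TIM chaperones and the TIM22 complex, whereas most other multi-pass solute carriers are inserted at the endoplasmic reticulum (ER). Some members stand apart from the family label: Slc25a17 lies in peroxisomes, and Slc25a46 lies in the outer mitochondrial membrane and acts in mitochondrial shape and lipid handling. In stem cells LIN28A is best known for blocking the maturation of let-7 microRNAs, and it also binds many mRNAs.

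The siRNA strands are shown because they alone define the siRNA groups; each is given 5′ to 3′ without its DNA overhang, in lower case throughout since the labels do not say which strand is the guide.
siLin28a strand A: auguucuucccuuuuggcc
siLin28a strand B: ggccaaaagggaagaacau
siLuc strand A: ucgaaguacucagcguaag
siLuc strand B: cuuacgcugaguacuucga

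Depth ranged from 7698479 to 8027670 counts in CLIP, from 7475174 to 9605641 in poly(A) RNA and from 5980673 to 7570209 in footprints. Lin28a mRNA stood at 118 CPM with siLin28a, 354 with siLuc and 465 in untreated cells, so 33.4% of the siLuc level was left. CPM are counts divided by the library's total and scaled to a common depth. Footprints of Lin28a stood at 30.4 CPM with siLin28a and 119 with siLuc. All 8 stem cell markers were present, summing to 6084, 5170 and 5006 CPM with siLin28a, with siLuc and untreated, while none of 7 markers of differentiated lineages reached 10 CPM. Of 5 fibroblast markers 4 were measured, summing to 302, 287 and 180 CPM in the same order, mostly from Vim at 289, 262 and 153 CPM. Thy1 went the other way at 10.6, 23.3 and 24.1 CPM. Col1a1 (1.25, 1.34 and 1.73 CPM) and Col1a2 (0.42, 0.27 and 0.76 CPM) were near 0. The part of these markers in the results was not tested.

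By the counts of the poly(A) table, the phosphate carrier Slc25a3, which supplies phosphate for ATP synthesis, was the highest carrier for its length. It had 314 poly(A) CPM per kilobase of exon with siLin28a, 299 with siLuc and 354 in untreated cells (RefSeq NM_133668; mm9 chromosome 10, 90579323 to 90586708). The glutathione carrier Slc25a39 came next with 233, 187 and 267 CPM per kilobase in the same order (NM_026542; chromosome 11, 102264295 to 102268831). Slc25a3 and Slc25a39 together held 38.2% of all untreated carrier counts in the poly(A) table. The ADP/ATP carrier Slc25a4, which brings ADP in and ATP out, followed with 196 CPM per kilobase with siLin28a, 159 with siLuc and 131 in untreated cells. The citrate carrier Slc25a1 (91.3 untreated) and the oxoglutarate carrier Slc25a11 (79.0 untreated) came after it on the same scale. At the other end 11 carriers had fewer than 20 untreated counts, among them Slc25a31, the ADP/ATP carrier of germ cells, with 9 counts for siLin28a, 5 for siLuc and 12 untreated. Summed over the family, carriers held 2459 CPM with siLin28a, 2319 with siLuc and 2564 in untreated cells. In bulk RNA, fewer cells of a type and less RNA per cell cannot be told apart.

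**Figure D1:**
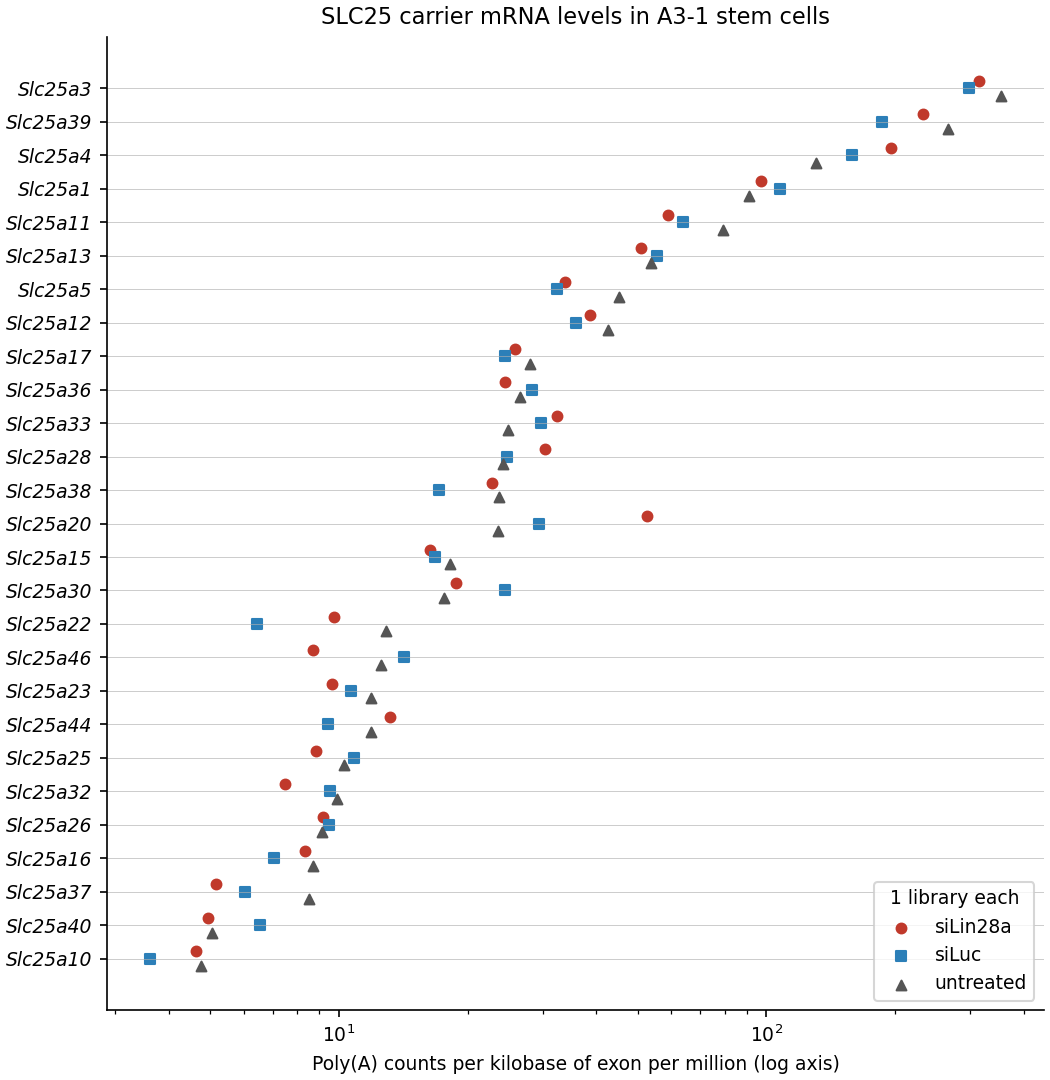
Poly(A) CPM per kilobase of exon (log axis) of 27 carriers with 100 or more untreated counts, for siLin28a (circles), siLuc (squares) and untreated cells (triangles), 1 library each. Slc25a3 and Slc25a39 sit at the top in all 3 libraries, and Slc25a20 has its siLin28a point well to the right of the others.

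The second ADP/ATP carrier, Slc25a5, is uncertain. With siLuc it had 300 poly(A) counts in the poly(A) table and 4397 in the footprint table, an 18.3-fold departure from the median ratio of those tables. Among 7934 transcripts in both tables, 493 exceeded that ratio by over 2-fold in the footprint table, and 437 fell below it by over 2-fold. Slc25a44 was among the latter, with 253 siLuc counts in the poly(A) table and 80 in the footprint table. RefSeq lists a pseudogene, Slc25a5-ps; how reads shared with such a copy were counted is not given in the sources used here. In the footprint table Slc25a5 had 721 poly(A) CPM with siLin28a and 612 with siLuc, above Slc25a3 at 541 and 486. The order of carriers by mRNA level given above thus holds for the poly(A) table alone. Slc25a5 values are therefore set apart wherever they matter.

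The first comparison set LIN28A CLIP against untreated poly(A) RNA, to ask which carrier mRNAs were over- or under-represented among LIN28A-bound RNA. More carriers were under- than over-represented: 6 of 26 were higher and 12 lower in CLIP, with 8 not called (edgeR quasi-likelihood test, Benjamini-Hochberg adjusted p under 0.05 over all 7820 transcripts). The 6 higher included the uncertain Slc25a5. Of all tested transcripts 34.6% were called higher and 33.3% lower. The median log2 enrichment was −0.48 over the 26 carriers and −0.03 over all transcripts. The mitochondrial shape protein Slc25a46 stood highest, and the ATP-Mg/phosphate carrier Slc25a23, the mitoferrin Slc25a37, the citrate carrier Slc25a1 and the glutathione carrier Slc25a39 were the 4 lowest. The sign was the same with all 3 antibodies for 24 of the 26, 8 above and 16 below 0. All 3 antibodies were set against the same untreated poly(A) library, so an error in that library would shift all 3 alike. The shared sign is thus no check of the input, and no such share over all transcripts is given. By size, 3 called carriers were higher by 2-fold or more (Slc25a46, Slc25a40 and Slc25a32) and 9 lower, beside 21.4% higher and 21.2% lower of all 7820 transcripts. Scaling by total counts in place of TMM factors (which match the bulk of transcripts between libraries) moved the median of all transcripts to −0.38 by edgeR, with 1984 of all transcripts called higher and 3605 lower, against 2702 and 2604 with TMM.

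Carriers of adenine nucleotides and phosphate were called higher for 1, lower for 3 and not called for 1 of the 5 in the CLIP table. For Slc25a3 the CLIP libraries held 284, 299 and 309 scaled CPM (35L33G, 2J3 and polyclonal, in this order throughout), against 460 in untreated poly(A) RNA, where scaled CPM are CPM after edgeR's TMM scaling. All 3 CLIP libraries were below the input, and the log2 enrichment was −0.63 ± 0.06 (SD, n = 3; edgeR adjusted p = 5.5e-06). Slc25a4 had 144, 121 and 135 scaled CPM in CLIP, against 124 in poly(A) RNA (NM_007450; chromosome 8, 47292698 to 47296363). Those CLIP values lay on either side of the input, at a log2 enrichment of 0.10 ± 0.13 (SD, n = 3; edgeR adjusted p = 0.534). The uncertain Slc25a5 had 77.1, 93.2 and 79.1 scaled CPM in CLIP, against 48.2 in poly(A) RNA (NM_007451; chromosome X, 34335647 to 34338801). Its log2 enrichment was 0.78 ± 0.15 (SD, n = 3; edgeR adjusted p = 0.00182), and the edgeR call was lost with total counts (adjusted p = 0.0677). The input of Slc25a5 comes from the poly(A) table, where its siLuc count was far below that of the footprint table. The footprint table has no untreated counts, so even the sign of this enrichment is uncertain.

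The calcium-regulated ATP-Mg/phosphate carriers Slc25a23 and Slc25a25, which adjust the adenine nucleotide pool of the matrix, were both lower. Slc25a23 had 6.05, 10.2 and 7.88 scaled CPM in CLIP, against 34.4 in poly(A) RNA (NM_025877; chromosome 17, 57183134 to 57199286). With every antibody far below the input, it was the lowest carrier at −2.12 ± 0.37 (SD, n = 3; edgeR adjusted p = 0.000292). Slc25a25 stood at −1.40 ± 0.24 (SD, n = 3).

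Carriers of organic acids and amino acids had no member higher: 5 of 8 were lower and 3 were not called, with a median log2 enrichment of −0.75. The citrate carrier Slc25a1, which exports citrate for lipid synthesis, had 52.9, 36.6 and 38.3 scaled CPM in CLIP, against 132 in poly(A) RNA (NM_153150; chromosome 16, 17925304 to 17928312). It fell clearly under the input with each antibody, at −1.64 ± 0.29 (SD, n = 3; edgeR adjusted p = 6.54e-07). Both aspartate/glutamate carriers of the malate-aspartate shuttle were lower, Slc25a12 at −1.50 ± 0.49 and Slc25a13 at −0.69 ± 0.15 (SD, n = 3). Their shuttle partner, the oxoglutarate/malate carrier Slc25a11, stood at −0.80 ± 0.06 (SD, n = 3). The glutamate carrier Slc25a22 had 19.7, 9.65 and 13.8 scaled CPM in CLIP, against 30.9 in poly(A) RNA, and a log2 enrichment of −1.16 ± 0.51 (SD, n = 3; edgeR adjusted p = 0.0242). That call was lost by edgeR without 2J3 (adjusted p = 0.0674) and with siLuc poly(A) RNA as the input (adjusted p = 0.884). The ornithine carrier Slc25a15 (0.27), the glycine carrier Slc25a38 (−0.45) and the branched-chain amino acid carrier Slc25a44 (−0.46) were not called at those log2 enrichments.

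Carriers of nucleotides and cofactors were mixed, with 3 higher, 2 lower and 3 not called of 8. Slc25a32, which carries folate or flavin, had 51.8, 69.0 and 62.9 scaled CPM in CLIP, against 25.03 in poly(A) RNA (NM_172402; chromosome 15, 38925737 to 38944262). It was above the input with every antibody, at 1.28 ± 0.21 (SD, n = 3; edgeR adjusted p = 0.000116). Slc25a16, a relative of yeast Leu5, had 45.4, 52.9 and 42.8 scaled CPM in CLIP, against 23.5 in poly(A) RNA (NM_175194; chromosome 10, 62383381 to 62409242). Its log2 enrichment was 1.00 ± 0.16 (SD, n = 3; edgeR adjusted p = 0.00218). Slc25a39 stood at the opposite end with 133, 122 and 140 scaled CPM in CLIP, against 381 in poly(A) RNA. All antibodies left it well below the input, at −1.53 ± 0.10 (SD, n = 3; edgeR adjusted p = 2.07e-10). The peroxisomal Slc25a17 had 61.1, 52.2 and 46.9 scaled CPM in CLIP, against 40.1 in poly(A) RNA. It was not called at 0.41 ± 0.19 (SD, n = 3; edgeR adjusted p = 0.121), but it was called by edgeR with siLuc poly(A) RNA as the input (0.62, adjusted p = 0.0304).

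The remaining group holds the iron and acylcarnitine carriers and others, with 2 higher, 2 lower and 1 not called of 5. Slc25a46 had 230, 256 and 293 scaled CPM in CLIP, against 47.2 in poly(A) RNA (NM_026165; chromosome 18, 31739822 to 31769556). Every antibody gave several times the input, and its log2 enrichment of 2.45 ± 0.18 was the highest of the 26 (SD, n = 3; edgeR adjusted p = 1.88e-11). Slc25a20, the carnitine/acylcarnitine carrier that brings fatty acids in for oxidation, had 68.9, 62.9 and 66.8 scaled CPM in CLIP, against 36.2 in poly(A) RNA (NM_020520; chromosome 9, 108564429 to 108586972). The antibodies were close together and above the input, at 0.87 ± 0.07 (SD, n = 3; edgeR adjusted p = 0.00145). Both mitoferrins, the iron importers of mitochondria, were lower. Slc25a37 had 8.80, 15.2 and 5.34 scaled CPM in CLIP, against 30.4 in poly(A) RNA (NM_026331; chromosome 14, 69859908 to 69903160). It was below the input with each antibody but uneven between them, at −1.76 ± 0.75 (SD, n = 3; edgeR adjusted p = 0.00576), and the edgeR call was lost with siLuc as the input (adjusted p = 0.0634). Slc25a28 stood at −1.37 ± 0.54 (SD, n = 3). Slc25a30, a relative of the uncoupling proteins, had 23.0, 22.01 and 24.2 scaled CPM in CLIP, against 25.8 in poly(A) RNA, and was not called at −0.16 ± 0.07 (SD, n = 3; edgeR adjusted p = 0.676).

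**Figure D2:**
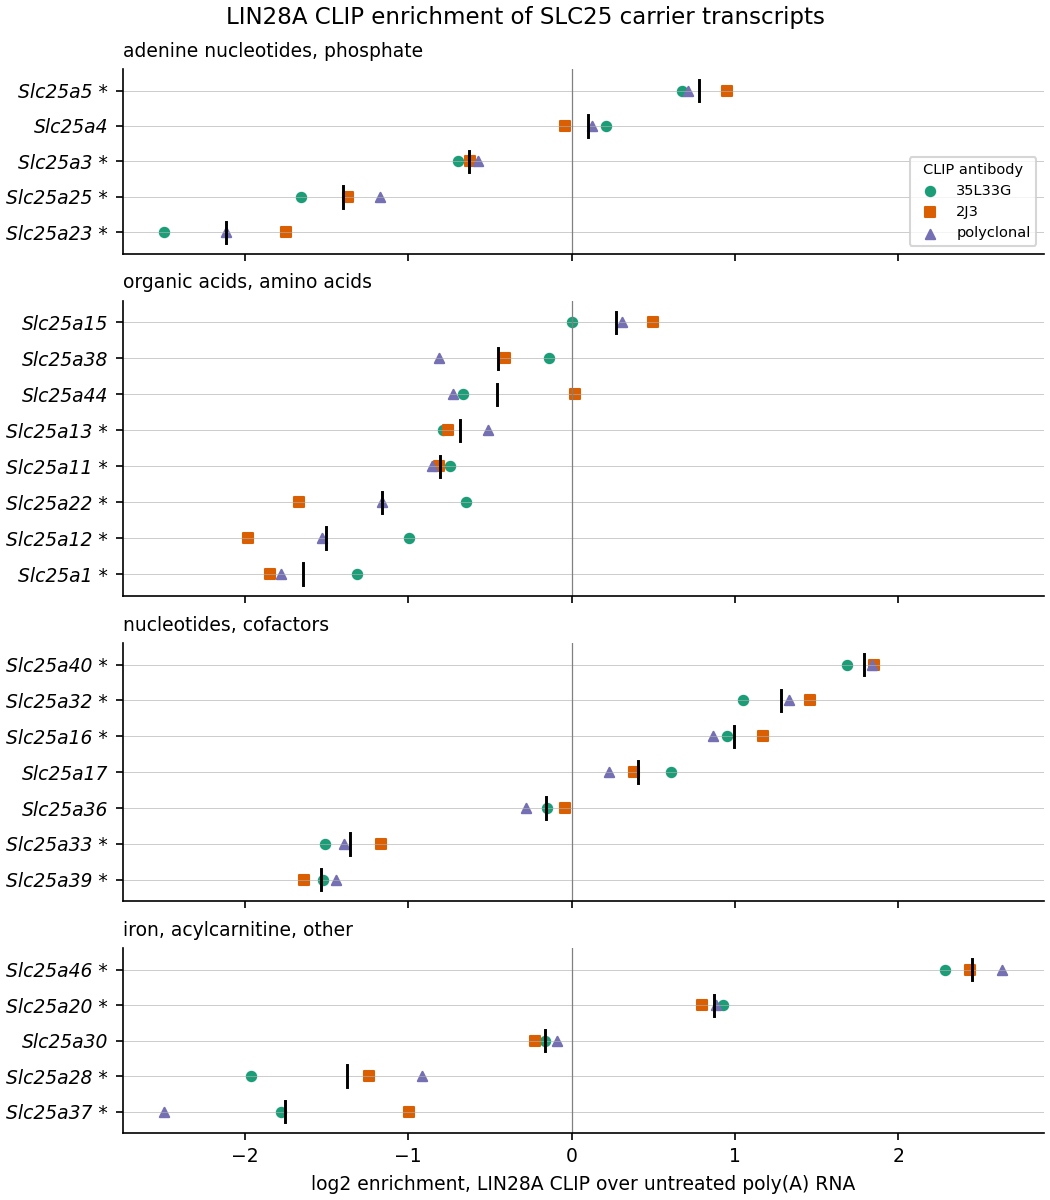
Log2 enrichment of LIN28A CLIP over untreated poly(A) RNA for 25 carriers in the CLIP table, by role; each symbol is 1 antibody library, the bar is their mean, and a star marks an edgeR adjusted p under 0.05. Slc25a46 is highest at 2.45 and Slc25a23 lowest at −2.12, and the group of organic and amino acid carriers has no starred gene above 0.

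Among the close relatives given here, only Slc25a39 and Slc25a40 were called in opposite directions, beside 34.6% higher and 33.3% lower of all transcripts. Differences within pairs were not tested. Slc25a40, a paralog of the glutathione carrier, had a log2 enrichment of 1.79 ± 0.09 (edgeR adjusted p = 2.64e-05), against −1.53 ± 0.10 for Slc25a39 (SD, n = 3 each). The counts behind Slc25a40 were 283, 321 and 323 in CLIP and 130 in untreated poly(A) RNA, the smallest untreated count of the 26. Slc25a26 and Slc25a10, with 162 and 176 untreated counts, were not in the CLIP table, and its rule of entry is not known here. A carrier this low in mRNA may have entered through its CLIP reads, so the higher call of Slc25a40 may be partly set by entry. That was not tested. Of the pyrimidine nucleotide carriers, Slc25a33 stood at −1.36 ± 0.17 and was called lower, and Slc25a36 at −0.16 ± 0.12 and was not called (SD, n = 3 each). The aspartate/glutamate carriers and the mitoferrins shared a direction within each pair.

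The SD of log2 enrichment over antibodies had a median of 0.18 over the 26 carriers and 0.15 over all transcripts, and it was largest for Slc25a37, which had 64, 112 and 40 CLIP counts. Mean enrichment over the 26 carriers had a Spearman correlation of −0.44 with coding length, against 0.01 over 7733 coding transcripts. Its correlation with non-coding length was 0.10 over the carriers, against 0.27 over the coding transcripts. With the untreated count, which enters both axes, it was −0.25 over the carriers and −0.14 over coding transcripts. These correlations are across transcripts that share libraries and are given as descriptions.

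The second question was where on the carrier mRNAs the CLIP reads lay. The coding share, the part of coding plus 3′ untranslated region (UTR) counts that fell in the coding part, had a median of 47.4% over the 26 carriers, against 69.8% over 7658 coding transcripts. It was 58.5% over 17 import proteins, 69.5% over 6 mitochondrial carriers with other names and 48.7% over 106 other genes with an Slc symbol. The coding part of the transcript was itself shorter in carriers, with a median of 51.3% of length against 56.6% over all. Per base, the median coding share was 55.3% for the carriers and 64.3% over all transcripts. Here 3′ UTR counts were divided by the whole non-coding length, which includes the untranslated region ahead of the coding part. That can only raise the coding share per base.

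Coding shares spanned nearly the full range among carriers. The ADP/ATP carrier Slc25a4 had 1006, 868 and 972 coding counts and 34, 19 and 30 counts in the 3′ UTR, a coding share of 97.2% ± 0.6 (SD, n = 3). Slc25a39 at 83.8% ± 1.1 and Slc25a1 at 81.3% ± 7.4 were also read mostly in the coding part (SD, n = 3 each). At the other end Slc25a36 had 56, 18 and 22 coding counts and 401, 482 and 407 in the 3′ UTR, a coding share of 6.99% ± 4.6 (SD, n = 3). Slc25a20 had 75, 119 and 84 coding counts and 415, 344 and 416 in the 3′ UTR, a share of 19.3% ± 5.6 (SD, n = 3). Its coding part made up 50.8% of the transcript, so its CLIP reads lay in the 3′ UTR more than length alone gives. Slc25a46, the most enriched carrier, had a share of 36.8% ± 1.9 (SD, n = 3) over a coding part of 28.8% of length. No poly(A) library with separate coding and UTR counts could be assigned to a sample, so these shares have no input beside them.

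**Figure D3:**
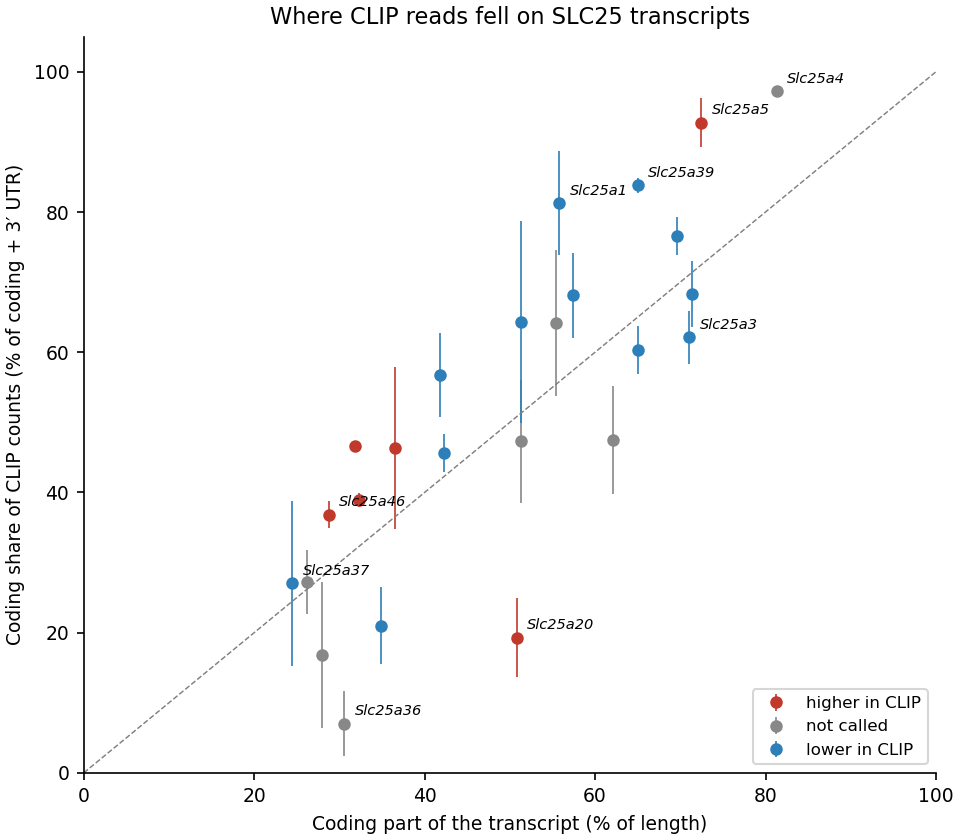
Coding share of CLIP counts (mean over 3 antibodies, bars are SD) against the coding part of the transcript length, both in percent, for 25 carriers, coloured by their call in CLIP; the dashed line marks equal shares. Slc25a20 and Slc25a36 lie far below the line, and Slc25a4, Slc25a1 and Slc25a39 lie above it. The transcript length includes the untranslated region ahead of the coding part, whose counts are not in the share.

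The carrier median in CLIP lay nearer to that of import proteins than to that of other genes with an Slc symbol, though differences between lists were not tested. Nearest was the median of 6 mitochondrial carriers with other names, at −0.37. The import list covers TOM and TIM proteins more widely than the parts named above for carriers, with Timm17a, Timm44 and Timm50 among them. Of 17 import proteins 5 were higher and 6 lower in CLIP, with a median log2 enrichment of −0.14. Among these, the import pore subunit Tomm40 stood at −1.96 ± 0.24 and the small chaperone Timm13 at −2.09 ± 0.26, while Tomm7 stood at 2.24 ± 0.06 and Timm17a at 1.39 ± 0.12 (SD, n = 3 each). Tomm70a, the receptor for carrier precursors, was higher at 0.79 ± 0.05 (SD, n = 3), a gene chosen after its value was seen. Of 6 mitochondrial carriers with other names 1 was higher and 2 lower: Mtch2 at 0.83 ± 0.11, and Ucp2 at −3.12 ± 0.33 with Sfxn1 at −0.99 ± 0.13, while Sfxn2 was not called at −0.32 ± 0.58 (SD, n = 3 each). Of the 106 other Slc genes 62 were higher and 13 lower, with a median of 0.72. The zinc exporter Slc30a1 was the highest of them at 3.18 ± 0.06, followed by the nucleotide sugar transporter Slc35a3 at 2.73 ± 0.14 (SD, n = 3 each). Lowest were Slc9a3r1, a scaffold protein and not a carrier, at −1.98 ± 0.10 and the vesicular nucleotide transporter Slc17a9 at −1.91 ± 0.10 (SD, n = 3 each).

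**Figure D4:**
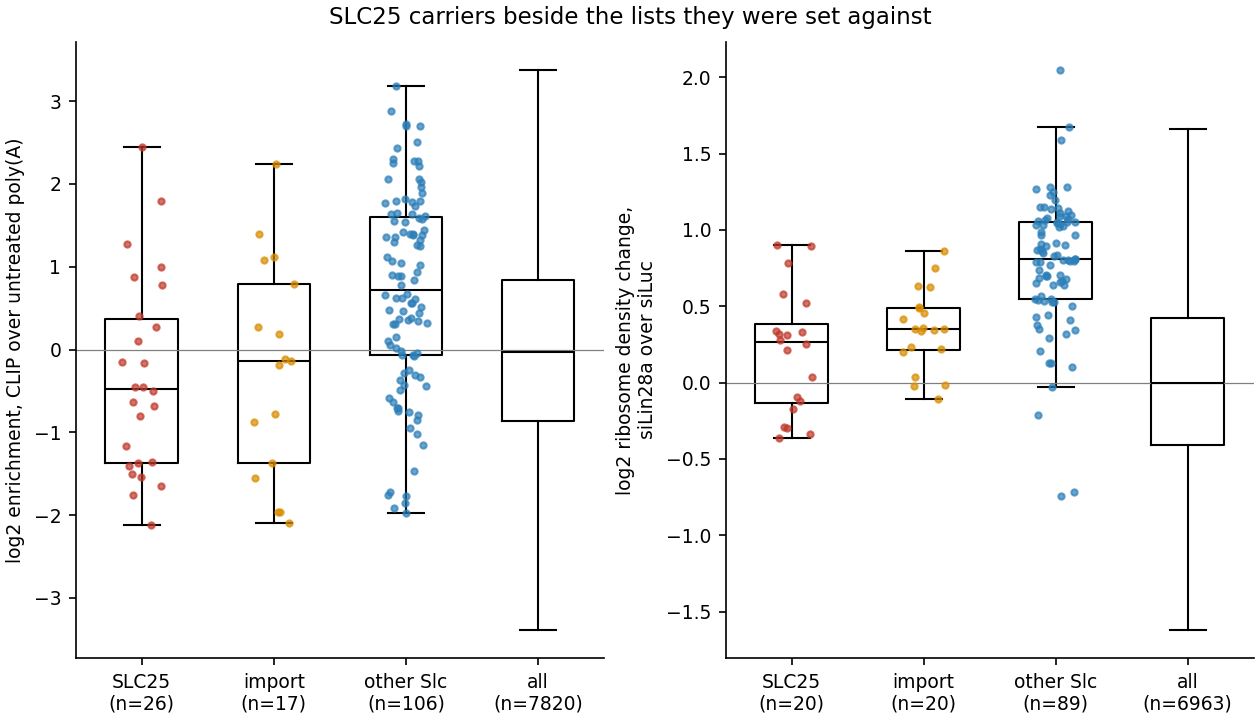
Left, mean log2 enrichment in LIN28A CLIP over untreated poly(A) RNA; right, log2 change of ribosome density for siLin28a over siLuc relative to the median transcript. Points are genes, boxes show the median and quartiles with whiskers to 1.5 times the interquartile range, and the numbers of genes stand under each list; carrier medians are −0.48 and 0.27, and those of other Slc genes 0.72 and 0.81.

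Next, mRNA with siLin28a was set against siLuc. There was 1 library per condition, so no test was possible; values are log2 ratios relative to the median transcript with 95% counting intervals, and a gene counts as changed in size when past 1.5-fold. With at least 200 counts summed over both libraries, 28 of 43 carriers could be read, and their median was 0.01. Of these 28, 2 were past 1.5-fold higher and 1 lower, beside 7.64% higher and 4.42% lower of the 8859 transcripts read. Counting intervals lay wholly above 0 for 9 carriers and below 0 for 8, beside 30.8% and 30.4% of all transcripts read.

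Slc25a20 had 94.0 CPM with siLin28a, 52.4 with siLuc and 42.1 untreated. The siLin28a library was above both controls, by 0.84 (0.67 to 1.01) over siLuc and 1.18 (1.00 to 1.35) over untreated cells on the log2 scale. Slc25a22 had 27.2 CPM with siLin28a, 17.9 with siLuc and 35.9 untreated. Here siLin28a lay between the controls, at a log2 change of 0.60 (0.30 to 0.90) over siLuc and −0.39 (−0.62 to −0.15) over untreated cells, and a pseudocount of 5 counts took it under 1.5-fold over siLuc. Slc25a46 had 38.0 CPM with siLin28a, 62.1 with siLuc and 54.9 untreated. It was below both controls, at −0.71 (−0.90 to −0.51) against siLuc and −0.51 (−0.71 to −0.32) against untreated cells.

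The 3 carriers with the most mRNA for their length in the poly(A) table stayed within 1.5-fold of siLuc. Slc25a3 had 475 CPM with siLin28a, 451 with siLuc and 536 untreated, a log2 change of 0.07 (0.01 to 0.14) over siLuc. Slc25a39 had 387 CPM with siLin28a, 310 with siLuc and 443 untreated, so its log2 change was 0.32 (0.24 to 0.39) over siLuc and −0.18 over untreated cells. Slc25a4 had 216 CPM with siLin28a, 175 with siLuc and 144 untreated, at 0.30 (0.20 to 0.40) over siLuc and 0.60 (0.50 to 0.69) over untreated cells. Over untreated cells 2 carriers were thus past 1.5-fold higher, Slc25a20 and Slc25a4, and 1 lower, the mitoferrin Slc25a37 at −0.70, beside 7.84% higher and 4.66% lower of 9056 transcripts. The uncertain Slc25a5 had 42.0 CPM with siLin28a, 40.1 with siLuc and 56.1 untreated.

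The carriers at the ends of the CLIP order stayed within 1.5-fold of siLuc in mRNA, apart from Slc25a46 and Slc25a20. The citrate carrier Slc25a1 had 163 CPM with siLin28a, 180.3 with siLuc and 153 untreated, so siLin28a lay between the controls at −0.14 (−0.25 to −0.04) over siLuc. Slc25a32 had 22.1 CPM with siLin28a, 28.1 with siLuc and 29.1 untreated, below both controls at −0.35 (−0.62 to −0.07) over siLuc. For Slc25a16 the levels were 26.1 CPM with siLin28a, 22.2 with siLuc and 27.3 untreated, and its interval over siLuc held 0. The same held for Slc25a23, with 32.5 CPM with siLin28a, 36.0 with siLuc and 40.04 untreated. The mitoferrin Slc25a37 had 21.4 CPM with siLin28a, 25.1 with siLuc and 35.4 untreated, so both siRNA libraries were below the untreated one. For Slc25a17 the levels were close, at 43.0 CPM with siLin28a, 40.8 with siLuc and 46.6 untreated. The carrier median against untreated cells was −0.10 for siLin28a and −0.13 for siLuc.

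Footprints of carriers could be read for 15 of 24, with at least 200 counts summed over both libraries. Of these 3 were past 1.5-fold higher and 0 lower with siLin28a over siLuc, beside 20.8% higher and 16.2% lower of 6323 transcripts. The carrier median was 0.22 relative to the median transcript, which itself lay at −0.21 by total counts. Slc25a20 had 628 footprint counts with siLin28a and 321 with siLuc, from a smaller siLin28a library, a log2 change of 1.52 (1.33 to 1.72). The peroxisomal Slc25a17 had 63.4 footprint CPM with siLin28a and 38.3 with siLuc, a log2 change of 0.94 (0.72 to 1.16). Slc25a39 followed with 87.1 footprint CPM with siLin28a and 64.2 with siLuc, at 0.65 (0.48 to 0.83), and it was no longer past 1.5-fold by total counts. Both aspartate/glutamate carriers had intervals below 0, with log2 footprint changes of −0.38 (−0.54 to −0.23) for Slc25a13 and −0.26 (−0.50 to −0.03) for Slc25a12; by total counts Slc25a13 was past 1.5-fold lower. Footprints of the abundant Slc25a3 stood at 475 CPM with siLin28a and 474 with siLuc, and those of Slc25a4 at 213 and 212 CPM, which relative to the median transcript is a log2 change of 0.22 for each. The uncertain Slc25a5 had 995 footprint CPM with siLin28a and 1181 with siLuc. The citrate carrier Slc25a1 had 586 footprint counts with siLin28a and 948 with siLuc, a log2 change of −0.14 whose interval reached just past 0. Below the count filter, Slc25a32 had 87 footprint counts with siLin28a and 110 with siLuc, Slc25a23 had 22 and 40, and Slc25a37 had 23 and 37. Slc25a44, also below it, had 76 and 66, a log2 change of 0.76 (0.28 to 1.23). Of 86 other Slc genes 73 were past 1.5-fold higher, with a median of 0.88, and of 19 import genes 3, with a median of 0.41.

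Ribosome density, the footprint change less the mRNA change of the same table, could be read for 20 of 24 carriers with at least 50 counts in each of 4 libraries. The median log2 density change was 0.27 over these 20, with 13 above and 7 below 0. Past 1.5-fold, 3 were higher and 0 lower, beside 18.3% higher and 16.5% lower of 6963 transcripts. Density intervals lay wholly above 0 for 7 carriers and below 0 for 3 (Slc25a12, Slc25a13 and the uncertain Slc25a5), beside 30.4% above and 31% below of the transcripts read. The scaled median absolute deviation over transcripts, a measure of the spread of all log2 density changes, was 0.61, and the median transcript lay at −0.19 by total counts.

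Slc25a46 had 22.2 footprint CPM with siLin28a and 20.7 with siLuc, beside 23.1 and 35.1 poly(A) CPM in that table. Relative to the median transcript its log2 footprint change was 0.32 and its mRNA change in that table −0.60, and the log2 density change, centred on its own median, was 0.90 (0.47 to 1.32). The uncoupling protein relative Slc25a30 had 14.2 footprint CPM with siLin28a and 13.9 with siLuc, beside 16.9 and 26.8 poly(A) CPM. On the same scales its log2 footprint change was 0.25, its mRNA change −0.67 and its density change 0.90 (0.39 to 1.41). By total counts, without centring, the density change was 0.71 for both genes. In the poly(A) table Slc25a30 had 32.1 CPM with siLin28a, 41.7 with siLuc and 30.0 untreated, so the siLuc library stood apart. Slc25a17 had 35.8 poly(A) CPM with siLin28a and 32.5 with siLuc in that table, so its higher footprints gave a density change of 0.78 (0.45 to 1.11). For Slc25a20, with 64.4 poly(A) CPM with siLin28a and 32.7 with siLuc in that table, mRNA and footprints were both higher and density stood at 0.52 (0.23 to 0.81). With at least 200 counts in each library 11 carriers were left, with a median density change of 0.02 and 1, Slc25a17, past 1.5-fold higher.

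By role, the 6 carriers of nucleotides and cofactors that could be read all stood above 0 in density, at 0.21 to 0.78 with a median of 0.31. Of 6963 transcripts 3481 stood above 0, as centring sets. Counting intervals held 0 for Slc25a32 (−0.24 to 0.90), Slc25a33 (−0.14 to 0.65) and Slc25a36 (−0.08 to 0.50). By total counts these stood at 0.14, 0.07 and 0.02, and Slc25a39 at 0.09. The 7 carriers of organic and amino acids ranged from −0.36 to 0.34 with a median of −0.09. Slc25a44 was their highest at 0.34 (−0.28 to 0.96), and stood at 0.26 with the mRNA counts of the poly(A) table. The lowest of the 7 were Slc25a12 at −0.36 (−0.64 to −0.09) and Slc25a13 at −0.34 (−0.54 to −0.14). The oxoglutarate carrier Slc25a11 of the same shuttle stood at 0.32 (0.05 to 0.58). Slc25a3 and Slc25a4 stood near the median transcript at 0.04 (−0.06 to 0.13) and −0.12 (−0.27 to 0.03), and the uncertain Slc25a5 stood at −0.29 (−0.37 to −0.22). The carriers that missed the filter had density changes of −0.31 for Slc25a25, −0.06 for Slc25a37, −0.02 for Slc25a23 and 0.25 for Slc25a26.

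**Figure D5:**
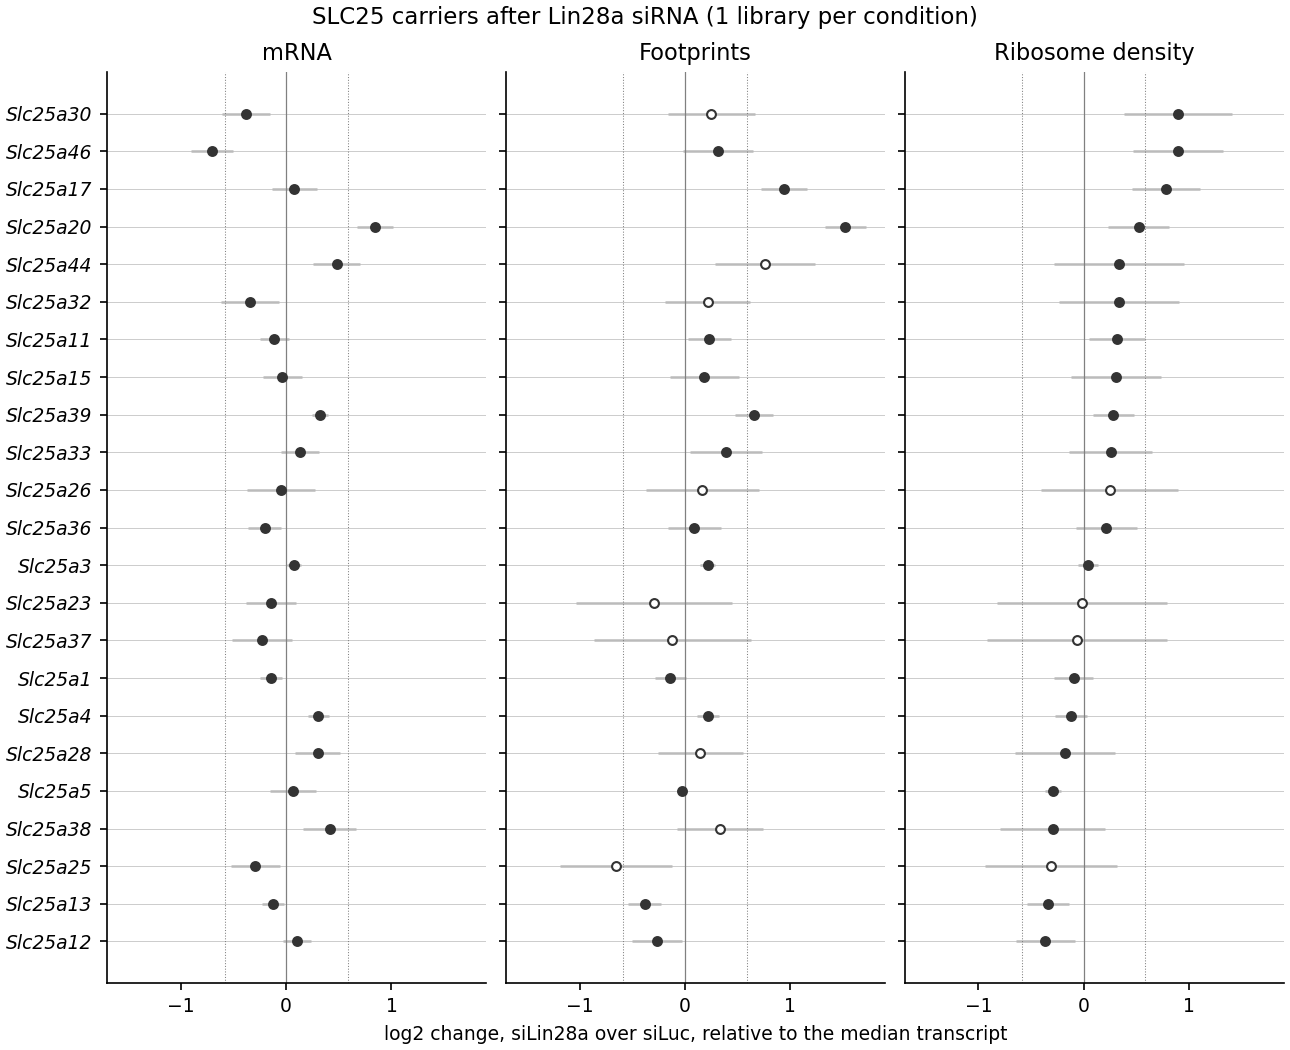
Log2 change of mRNA, footprints and ribosome density for siLin28a over siLuc, relative to the median transcript, for 23 carriers in the footprint table, ordered by density change; bars are 95% counting intervals, open circles missed the count filter, and thin lines mark 0 and 1.5-fold. Slc25a20 lies to the right in mRNA and footprints, while Slc25a46 and Slc25a30 lie to the left in mRNA and to the right in density.

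Other lists gave higher density values than the carriers, though no difference between lists was tested. Of 89 other Slc genes 65 were past 1.5-fold higher and 2 lower, with a median of 0.81. The median was 0.35 over 20 import genes, 4 of them past 1.5-fold higher, and 0.58 over 5 mitochondrial carriers with other names. Across the 20 carriers read in both assays, the Spearman correlation of CLIP enrichment with density change was 0.45, and 0.56 over 19 without Slc25a5, against 0.50 over 6519 transcripts. The points share the same libraries, and the correlation is a description.

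Density with siLuc alone, log2 of footprint over poly(A) CPM relative to the median transcript, ranged widely in the family. Over 22 carriers with at least 50 counts in each siLuc library its median was −0.13, against 0.12 over 5 mitochondrial carriers with other names, 0.93 over 20 import genes and 1.10 over 89 other Slc genes. Slc25a39, among the most abundant carriers in mRNA, was lowest at −1.86, with 64.2 footprint CPM and 282 poly(A) CPM. The pyrimidine nucleotide carriers were also low, Slc25a36 at −1.22 and Slc25a33 at −1.05. The uncertain Slc25a5 was highest at 1.23, followed by Slc25a4 at 0.68 (0.57 to 0.79) and Slc25a20 at 0.65 (0.41 to 0.90). This order holds for the poly(A) counts of the footprint table alone. Relative to the median ratio of the 2 poly(A) tallies, the siLuc count there was 0.75-fold for Slc25a20, 1.30-fold for Slc25a3 and 1.53-fold for Slc25a36. The counting intervals do not cover that difference. CLIP enrichment had a Spearman correlation of 0.51 with this density over 21 carriers and 0.47 over 20 without Slc25a5, against 0.13 over 6921 transcripts, again as a description.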

How the data were processed

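The deposited whole-number counts per RefSeq transcript were made by the authors from CLIP, poly(A) and footprint libraries; the build mm9, GSNAP and bedtools are named per the submitters' processing notes, with neither role nor version. How reads were assigned to transcripts is not stated there. Poly(A) counts of the CLIP table name no condition, and they were left out with other per-sample columns, 24 in total. The footprint table held only transcripts with 80 or more counts in each poly(A) library. CLIP (3 libraries) was tested against untreated poly(A) RNA (1 library, assumed to vary like them) with edgeR 4.0.16 in R 4.3.3: quasi-likelihood test, TMM, filterByExpr (which removed no transcript), Benjamini-Hochberg adjustment and a threshold of 0.05. DESeq2 1.42.0 was an alternative. Log2 enrichment per antibody and siRNA changes used a pseudocount of 0.5 counts. Intervals (95%, normal approximation on the log scale) cover counting error only. Correlations and medians were computed in Python 3.11.15. The edgeR fit and the density change were tested on simulated data. The simulated input was given the same spread as the CLIP libraries, so the assumption that it varies like them was not checked.

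The members and lists were chosen with earlier results of these data known. Values in every library are given for the 4 carriers highest and the 4 lowest in CLIP with 200 or more untreated counts, the phosphate and ADP/ATP carriers, and carriers past 1.5-fold with siLin28a; from the other lists the 2 highest and 2 lowest in CLIP with as many untreated counts are named. Roles are background knowledge. The values of 1 carrier are counted in the totals but not reported here.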

Additional observations from a re-analysis of the deposited data

How the results depend on the processing

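DESeq2 kept all 26 carriers on their side of 0 and of the threshold in CLIP (6 higher and 12 lower by edgeR and by DESeq2). The low-count filters did too but could hardly differ, as filterByExpr removed no transcript and 200 or more summed counts left 7807 of 7820. The median CLIP enrichment of carriers, −0.48, was −0.85 by total counts (5 higher, 16 lower), −0.25 with siLuc as the input (7 higher, 10 lower), and −0.56 to −0.49 with 1 antibody left out (6 higher, 11 to 12 lower); without Slc25a5, an alternative chosen after seeing the data, it was −0.50. By total counts edgeR also called Slc25a36, Slc25a44 and Slc25a38 lower, since this scaling lowers all transcripts. With siLuc as the input, edgeR called 2624 of all 7820 transcripts higher and 2428 lower. Median coding share was 55.3% per base, with 3′ UTR counts divided by the whole non-coding length. In mRNA, carriers past 1.5-fold higher numbered 1 with a pseudocount of 5 counts; without a count filter the median was 0.064 with 6 higher and 5 lower, and 2 were lower by the poly(A) tally of the footprint table (Slc25a46 and Slc25a30). The mRNA median was −0.036 without Slc25a5 and −0.10 over untreated cells. There, with no share over all transcripts computed, the sign turned for 12 of 28 carriers. The interval over siLuc had held 0 for 5 of them (Slc25a5, Slc25a12, Slc25a16, Slc25a17 and Slc25a26) and excluded it for 7: Slc25a3 (−0.16), Slc25a39 (−0.18), Slc25a1 (0.11), Slc25a38 (−0.035), Slc25a30 (0.11), Slc25a22 (−0.39) and Slc25a10 (−0.019). For footprints the median was 0.0054 by total counts with 1 carrier lower (Slc25a13). Without a filter 4 were higher, Slc25a44 being added, and 1 was lower (Slc25a25). The density median was 0.078 by total counts and 0.022 with 200 counts in each library, where 1 carrier was higher. The siLuc density median was −0.37 with the poly(A) table's mRNA, 0.0028 with 200 counts and −0.19 without Slc25a5. Where not set by fewer genes or the scaling itself, the cause was not tested. No paired analysis was possible because each siRNA condition has 1 library and antibodies carry no shared number with an input. Single siRNA libraries and low counts limit the carriers with few footprints most.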

Other observations

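Several carriers below the count filters had few but unequal mRNA counts. Slc25a24, a calcium-regulated ATP-Mg/phosphate carrier, had 36 poly(A) counts with siLin28a, 7 with siLuc and 6 untreated. Slc25a41, a related carrier, had 15 counts with siLin28a, 2 with siLuc and 6 untreated. Slc25a34 had 0 counts with siLin28a, 13 with siLuc and 5 untreated. These values come from 1 library each and were not tested.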
